A study of Caenorhabditis elegans with 8 samples.

Results

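The comparison described here set first-stage larvae (L1) of the Caenorhabditis elegans strain FAS43 against mixed-stage embryos of the same strain. It used 4 of the 8 libraries of the series, 2 of FAS43 L1 and 2 of FAS43 embryos, chosen by strain and stage from the labels. The other 4 libraries, 2 of L1 and 2 of embryos of the laboratory wild type N2, served as the comparison. FAS43 is a single strain that carries mutations in all genes of the replacement histone H3.3: the allele uge44 affects his-69 and his-70 on chromosome III, tm2066 affects his-72 on III, uge18 affects his-74 on V, and ok2289 affects his-71 on X. FAS43 larvae and embryos carry all of these alleles, so the stage comparison is between mutants and mutants. All animals were grown at 20 °C. RNA was measured by sequencing stranded mRNA libraries, and the deposited tables held whole-number read counts per gene. Whether the 2 libraries of each group are separate cultures is not stated in the labels, so the p-values below reflect how far these libraries lay apart, a spread that may be technical.

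H3.3 is the form of histone H3 that is placed into chromatin outside of DNA replication, at active genes among other sites. During C. elegans embryogenesis, maternal mRNA is cleared, zygotic genes that specify the germ layers are active for short windows, and cell division comes to an end for most lineages before hatching. The hatched L1 has a working nervous system, body wall and pharyngeal muscle, a feeding intestine and a cuticle, and it divides few of its cells until it feeds. The comparison asks which of these changes between embryo and larva can be measured when the H3.3 genes are mutated.

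Totals were 25192440 and 24091919 counts in FAS43 L1, against 17408914 and 27254898 counts in FAS43 embryos. There were 16249 genes listed for L1 and 13692 for embryos, and the 13335 genes in both tables were tested. Replicates of a stage were not alike. On the first principal component of log2 CPM (read counts scaled to a common library size), which held 81.5% of the variance, the FAS43 L1 libraries scored 54.9 and 125 and the FAS43 embryo libraries -69.1 and -123. FAS43 L1 replicate 1 and FAS43 embryo replicate 1 thus lay nearest to the other stage, and their log2 CPM values correlated at 0.860 over genes. Their place moves with the levels of many gene groups below, and its part in the results was not tested. Counts of called genes are therefore also given without single libraries. Ribosomal RNA genes took 1.81% and 4.16% of counts in FAS43 L1 and 0.748% and 2.58% in FAS43 embryos.

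Between the stages, 2113 genes were higher and 1288 lower in FAS43 L1 than in FAS43 embryos, that is 15.8% and 9.66% of the genes tested and 25.5% together (edgeR quasi-likelihood test, Benjamini-Hochberg adjusted p under 0.05). The median log2 fold change was 3.04 over the genes called higher, -2.26 over those called lower and -0.03 over all genes. The smallest called change was 1.46 log2 units. In each of the 3401 called genes both L1 libraries lay on the same side of both embryo libraries. Over all genes, both L1 libraries were above both embryo libraries in 36.5% and below them in 34.3%. The number called depended on single libraries. It was 719 higher and 17 lower without FAS43 L1 replicate 2, 237 and 204 without FAS43 embryo replicate 2, and 1855 and 515 without FAS43 embryo replicate 1. Without both replicate 1 libraries it was 2141 and 1047. No gene called in the full comparison changed direction in these fits. Since the stages did not overlap in any called gene, leaving out a library could hardly turn a sign.

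Of the H3.3 genes, his-71 and his-72 were low in the mutant. His-71 had 0.218 and 0.303 CPM in FAS43 L1, against 0.108 and 0.110 CPM in FAS43 embryos, which did not pass the test (log2 fold change 1.2, SE 0.782, edgeR adjusted p = 0.256). His-72 had 3.56 and 8.18 CPM in FAS43 L1, against 1.56 and 1.17 CPM in FAS43 embryos. It was called higher in FAS43 L1 (log2 fold change 2.1, SE 0.693, edgeR adjusted p = 0.0338), while its change between the N2 stages was -1.61 and not called. Both genes were under 10 CPM in every FAS43 library, and the reads at his-72 come from a mutant allele. His-74, which kept its transcript, had 27.1 and 15.2 CPM in FAS43 L1, against 72.6 and 75.3 CPM in FAS43 embryos (log2 fold change -1.81, SE 0.619, edgeR adjusted p = 0.0403). The call of his-72 and that of his-74 each ended without any of 3 libraries: FAS43 L1 replicate 2, FAS43 embryo replicate 1 or FAS43 embryo replicate 2. His-70 was listed for L1 only, with 0 and 0 counts in FAS43, and his-69 was not analysed here. What the his-74 allele changes is not stated in the labels. Y75B8A.33, a protein-coding gene on chromosome III, is not an H3.3 gene and was named after its values were seen. It had 917 and 1295 CPM in FAS43 L1, against 319 and 246 CPM in FAS43 embryos (log2 fold change 1.97, SE 0.565, edgeR adjusted p = 0.0192). Any link of this gene to the H3.3 mutations was not tested.

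The genes that rose most in FAS43 L1 included genes of digestion, defence, cuticle and protein turnover. Fbxa-24, an F-box gene on chromosome II from 3816526 to 3818238 (WBcel235), had 114 and 507 CPM in FAS43 L1, against 1.51 and 0.219 CPM in FAS43 embryos (log2 fold change 8.53, SE 1.01, edgeR adjusted p = 0.000609). Tts-1, a long non-coding RNA on X from 1504131 to 1504841, had 696 and 3409 CPM in FAS43 L1, against 20.1 and 3.32 CPM in FAS43 embryos (log2 fold change 7.46, SE 1.07, edgeR adjusted p = 0.000851). Both genes were separated widely between the stages, with FAS43 L1 replicate 2 the highest library for each. The top 10 were taken among called genes with a mean of at least 20 CPM and a symbol in the files that is not a sequence name, which leaves out Y69H2.14 at 7.01. Besides fbxa-24 and tts-1 they were lips-15, a lipase-related gene, asp-14 and asp-6, which encode aspartyl proteases, spp-14 and spp-8, saposin-like genes, clec-52, a C-type lectin, col-103, a cuticle collagen, and hlh-11, a bHLH transcription factor. Their log2 fold changes ran between 6.66 and 7.45. Asp-6 was also among the most abundant called genes of FAS43 L1, at 1374 and 7403 CPM, against 72.9 and 14.1 CPM in FAS43 embryos (log2 fold change 6.66, SE 1.21, edgeR adjusted p = 0.00220). By the same limits the 10 genes with the greatest fall changed by between -4.05 and -3.63 on the log2 scale, and the lowest value over all called genes was -4.60. Of these, 6 were F-box genes of the fbxb family (fbxb-24, fbxb-91, fbxb-66, fbxb-15, fbxb-104 and fbxb-45), and the others were sdz-33, sdz-5, skr-15 and hlh-14.

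**Figure D1:**
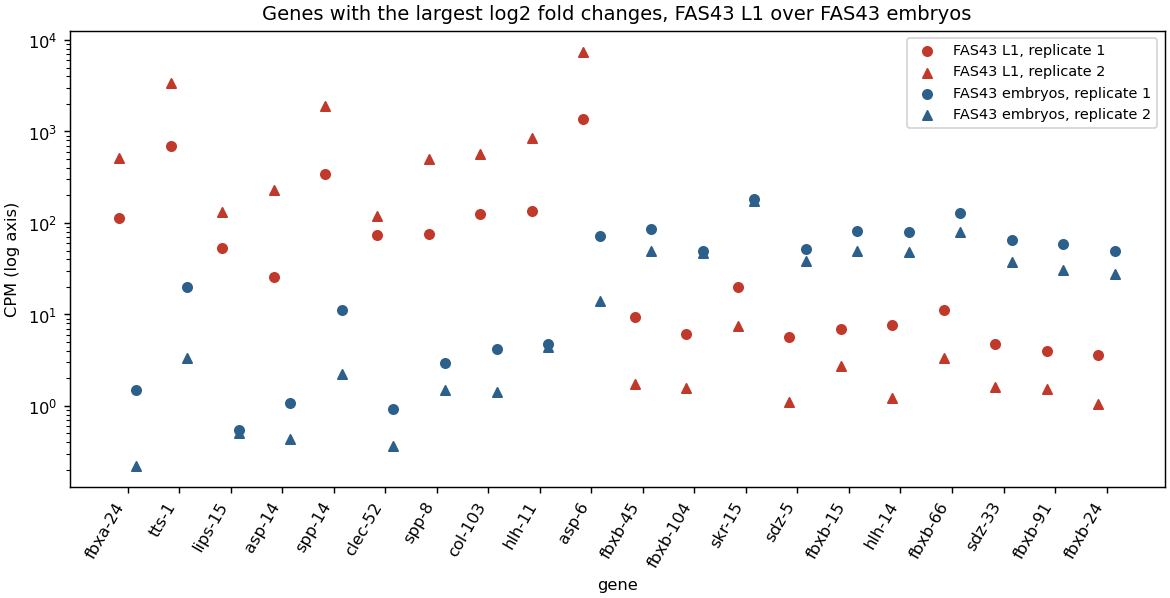
CPM on a log axis for the 10 called genes that changed most in each direction and had a gene name and a mean of 20 CPM or more; red is FAS43 L1, blue is FAS43 embryos, and circles and triangles are replicates 1 and 2. In each of the 20 genes both larval values lie on one side of both embryonic values.

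Neuropeptide, channel and synaptic genes rose, while few of the tested genes for chemoreceptors and cilia were called. Of 88 neuropeptide genes tested, 68 were higher and 0 lower in FAS43 L1, against 15.8% and 9.66% of all genes, with a median log2 fold change of 3.40. Their summed level was 2050 and 4770 CPM in FAS43 L1, against 780 and 288 CPM in FAS43 embryos. Nlp-12, a neuropeptide gene, had 53.1 and 183 CPM in FAS43 L1, against 3.88 and 1.095 CPM in FAS43 embryos (log2 fold change 5.58, SE 0.876, edgeR adjusted p = 0.00113). Flp-14 and flp-1, which encode FMRFamide-related peptides, were higher by 4.93 and 3.76 on the log2 scale (edgeR adjusted p = 0.00202 and 0.00444). The number of neuropeptide genes called was 40 without FAS43 L1 replicate 2, without FAS43 embryo replicate 2 it was 8, and without both replicate 1 libraries it was 76.

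Receptors and channels moved the same way. Of 130 genes for ligand-gated and potassium channels, 71 were higher and 0 lower, with a median log2 fold change of 2.28. Glc-1, a glutamate-gated chloride channel subunit, had 15.3 and 82.9 CPM in FAS43 L1, against 1.19 and 1.204 CPM in FAS43 embryos (log2 fold change 5.35, SE 0.894, edgeR adjusted p = 0.00143). Among 24 touch and sensory channel genes, 12 were higher and 0 lower. Mec-18, which acts in touch receptor neurons, was higher (log2 fold change 5.26, SE 1.03, edgeR adjusted p = 0.00315). The counts were 17 for the channels and 5 for the sensory genes without FAS43 L1 replicate 2, and 4 and 0 without FAS43 embryo replicate 2.

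For synaptic vesicle release and transmitters, 22 of 44 genes were higher and 0 lower in FAS43 L1. Egl-21, a carboxypeptidase that processes neuropeptides, had 281 and 659 CPM in FAS43 L1, against 18.7 and 7.15 CPM in FAS43 embryos (log2 fold change 5.19, SE 0.807, edgeR adjusted p = 0.00113). The transmitter markers of 3 neuron classes were called. On the log2 scale unc-17, the vesicular acetylcholine transporter, was higher by 3.63, unc-25, the GABA synthesis enzyme, by 3.51, and eat-4, the vesicular glutamate transporter, by 4.06 (edgeR adjusted p = 0.00801, 0.00720 and 0.00649). Of the vesicle protein markers, 2 were not called. Snb-1, synaptobrevin, had 202 and 234 CPM in FAS43 L1, against 237 and 243 CPM in FAS43 embryos (log2 fold change -0.14, edgeR adjusted p = 0.866). Rab-3, a vesicle GTPase, changed by 1.95 and did not pass (edgeR adjusted p = 0.0677). The synaptic genes called numbered 9 without FAS43 L1 replicate 2 and 2 without FAS43 embryo replicate 2. In whole animals, a greater number of cells of a type and more RNA per cell cannot be told apart. Of 50 chemoreceptor genes tested, 5 were higher and 1 lower, with a median log2 fold change of 0.43. Over the alternatives this median ran between 0.15 and 2.17. The chemoreceptor list held 1337 genes, of which 1081 were listed for neither stage, 173 for L1 alone and 33 for embryos alone. The tested genes thus do not stand for the whole family. Of 60 genes for cilia and intraflagellar transport, 3 were higher and 1 lower, with a median of 0.44 that ran between -0.05 and 1.2 over the alternatives.

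**Figure D2:**
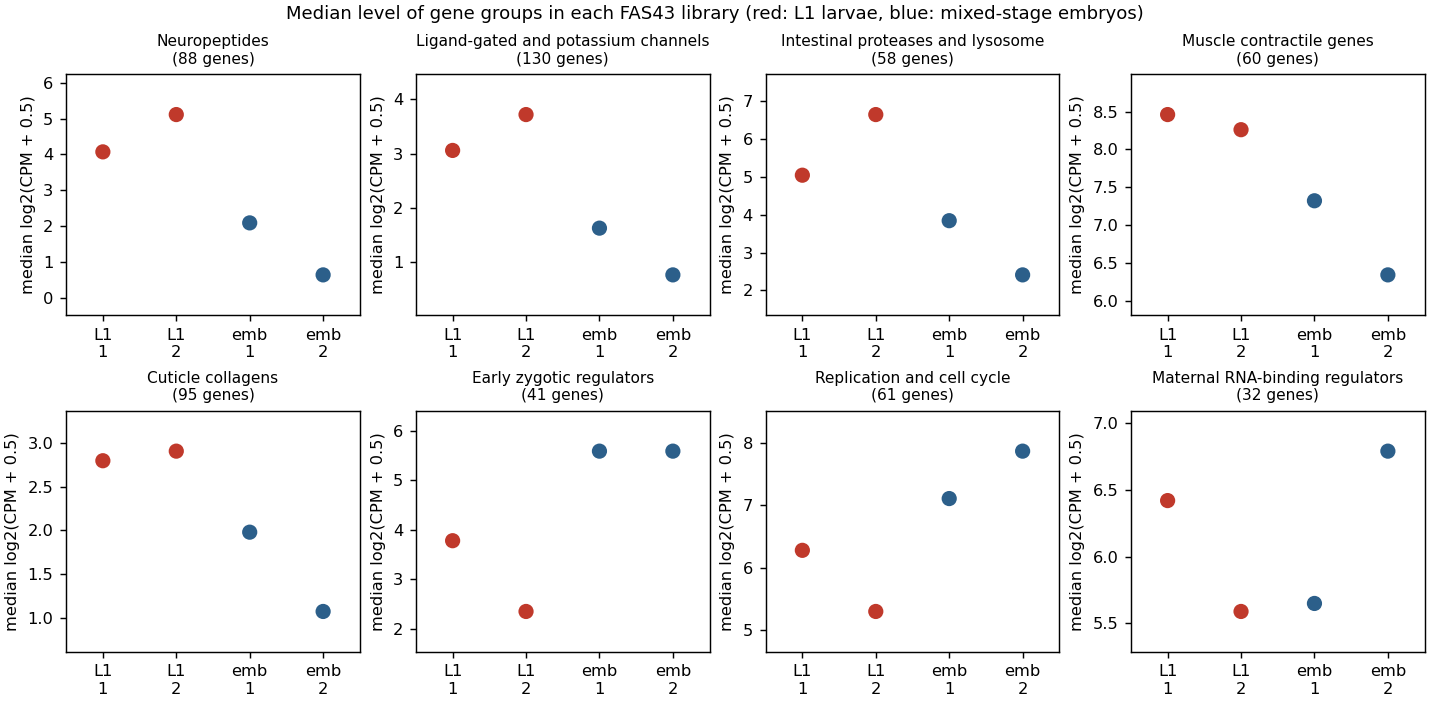
Median log2(CPM + 0.5) over the tested genes of 8 gene groups in each FAS43 library, with L1 larvae in red and mixed-stage embryos in blue and the replicate number under each point. The 2 larval libraries lie above both embryonic ones for neuropeptides, channels, intestinal proteases, muscle genes and collagens and below them for early zygotic regulators and cell cycle genes, while for maternal RNA-binding regulators the stages overlap.

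Muscle genes were higher in FAS43 L1 as well. Of 60 contractile genes, 25 rose and 0 fell, with a median log2 fold change of 1.66. They summed to 36400 and 50100 CPM in FAS43 L1, against 15700 and 8890 CPM in FAS43 embryos. Unc-54, the main myosin heavy chain of body wall muscle, had 4314 and 11640 CPM in FAS43 L1, against 555 and 166 CPM in FAS43 embryos (log2 fold change 4.47, SE 0.996, edgeR adjusted p = 0.00624). Per kilobase of exon it averaged 1290 CPM in FAS43 L1 and 58.1 CPM in FAS43 embryos. Myo-2, a pharyngeal myosin, had 1303 and 1456 CPM in FAS43 L1, against 82.2 and 23.5 CPM in FAS43 embryos (log2 fold change 4.71, SE 0.908, edgeR adjusted p = 0.00303). Myo-1, the other pharyngeal myosin, changed by 4.49, myo-3 of body wall muscle by 2.92 and unc-15, paramyosin, by 3.29 on the log2 scale (edgeR adjusted p = 0.00348, 0.0127 and 0.00983). Hlh-1, the MyoD homolog that specifies body wall muscle, had 36.9 and 22.1 CPM in FAS43 L1, against 96.8 and 70.5 CPM in FAS43 embryos, and was not called (log2 fold change -1.50, SE 0.589, edgeR adjusted p = 0.0667). The count of contractile genes called was 13 without FAS43 L1 replicate 2 and 0 without FAS43 embryo replicate 2.

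In the intestine, digestive and lysosomal genes rose. Of 58 intestinal protease and lysosome genes, 35 were higher and 2 lower, with a median log2 fold change of 2.58, and they summed to 7810 and 33600 CPM in FAS43 L1, against 3340 and 2510 CPM in FAS43 embryos. Asp-1, an aspartyl protease made in the intestine, had 996 and 7749 CPM in FAS43 L1, against 118 and 49.6 CPM in FAS43 embryos (log2 fold change 5.70, SE 1.12, edgeR adjusted p = 0.00327). The gap between the larval replicates was wide in this group, and FAS43 L1 replicate 2 held most of its reads. The lower members included glo-1, a Rab GTPase of gut granules (log2 fold change -2.29, SE 0.712, edgeR adjusted p = 0.0272). Act-5, the actin of intestinal microvilli, was higher at 2.00 and cpr-6, a cathepsin B-like protease, at 1.81 (edgeR adjusted p = 0.0294 and 0.0399). Vha-6, the apical intestinal V-ATPase subunit, had 218 and 1132 CPM in FAS43 L1, against 44.5 and 19.1 CPM in FAS43 embryos (log2 fold change 4.41, SE 0.948, edgeR adjusted p = 0.00530). The intestinal identity factor elt-2 did not differ detectably. It had 26 and 30.5 CPM in FAS43 L1, against 29 and 28 CPM in FAS43 embryos (log2 fold change -0.01, SE 0.561, edgeR adjusted p = 0.987). The protease and lysosome group had 22 genes higher without FAS43 L1 replicate 2, and without FAS43 embryo replicate 2 it had 10.

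Defence and secreted families followed, each with exceptions. Of 63 C-type lectins, 26 were higher and 6 lower, with a median of 1.92. Their summed level went the other way, at 3020 and 4980 CPM in FAS43 L1, against 7270 and 6710 CPM in FAS43 embryos, with clec-87 and clec-196 among the lectins that were lower. Clec-52 had 73.3 and 120 CPM in FAS43 L1, against 0.916 and 0.365 CPM in FAS43 embryos (log2 fold change 7.26, SE 0.943, edgeR adjusted p = 0.000609). Clec-87, among the most abundant called genes of FAS43 embryos, had 907 and 373 CPM in FAS43 L1, against 2749 and 3278 CPM in FAS43 embryos (log2 fold change -2.23, SE 0.793, edgeR adjusted p = 0.0459). Clec-196 was lower (log2 fold change -3.19, SE 0.725, edgeR adjusted p = 0.00674). Antimicrobial and immune effector genes had 17 of 31 higher and 1 lower, with a median of 2.34. Transthyretin-like genes had 20 of 37 higher and 3 lower, with a median of 2.43 and overlapping sums of 1940 and 2810 CPM in FAS43 L1, against 3790 and 2530 CPM in FAS43 embryos. On the log2 scale ttr-23 changed by 5.1 and ttr-50 by -3.24 (edgeR adjusted p = 0.00189 and 0.0110). Without FAS43 embryo replicate 2, 9 lectins, 3 immune effectors and 1 transthyretin-like gene were called higher. These counts were 14, 10 and 8 without FAS43 L1 replicate 2.

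Among metabolic genes, 15 of 45 for glycolysis, gluconeogenesis and the glyoxylate cycle were higher and 0 lower, with a median of 1.12. Pck-1, which makes phosphoenolpyruvate for gluconeogenesis, had 574 and 763 CPM in FAS43 L1, against 172 and 85.1 CPM in FAS43 embryos (log2 fold change 2.38, SE 0.690, edgeR adjusted p = 0.0202). Icl-1, the glyoxylate cycle enzyme, had 899 and 1892 CPM in FAS43 L1, against 694 and 620 CPM in FAS43 embryos and was not called (log2 fold change 1.09, edgeR adjusted p = 0.221). For fat synthesis and beta-oxidation, 12 of 72 genes were higher and 4 lower, close to the share of all genes called higher. Lipl-5, a lysosomal-type lipase, changed by 6.43 and acdh-1, an acyl-CoA dehydrogenase, by -2.89 (edgeR adjusted p = 0.000612 and 0.0259). Of 126 cytochrome P450, UGT and GST genes of detoxification, 26 were higher and 5 lower. Nuclear hormone receptors, ligand-regulated transcription factors, had 31 of 197 higher, near the share of all genes. The 6 receptors called lower were a smaller share than the 9.66% of all genes. The glycolysis group had 2 genes higher without FAS43 L1 replicate 2 and 1 without FAS43 embryo replicate 2, and the receptors 1 and 1. The detoxification genes called higher numbered 10 and 2 in these fits. Without FAS43 embryo replicate 1 there were 8 glycolysis genes and 19 receptors higher.

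**Figure D3:**
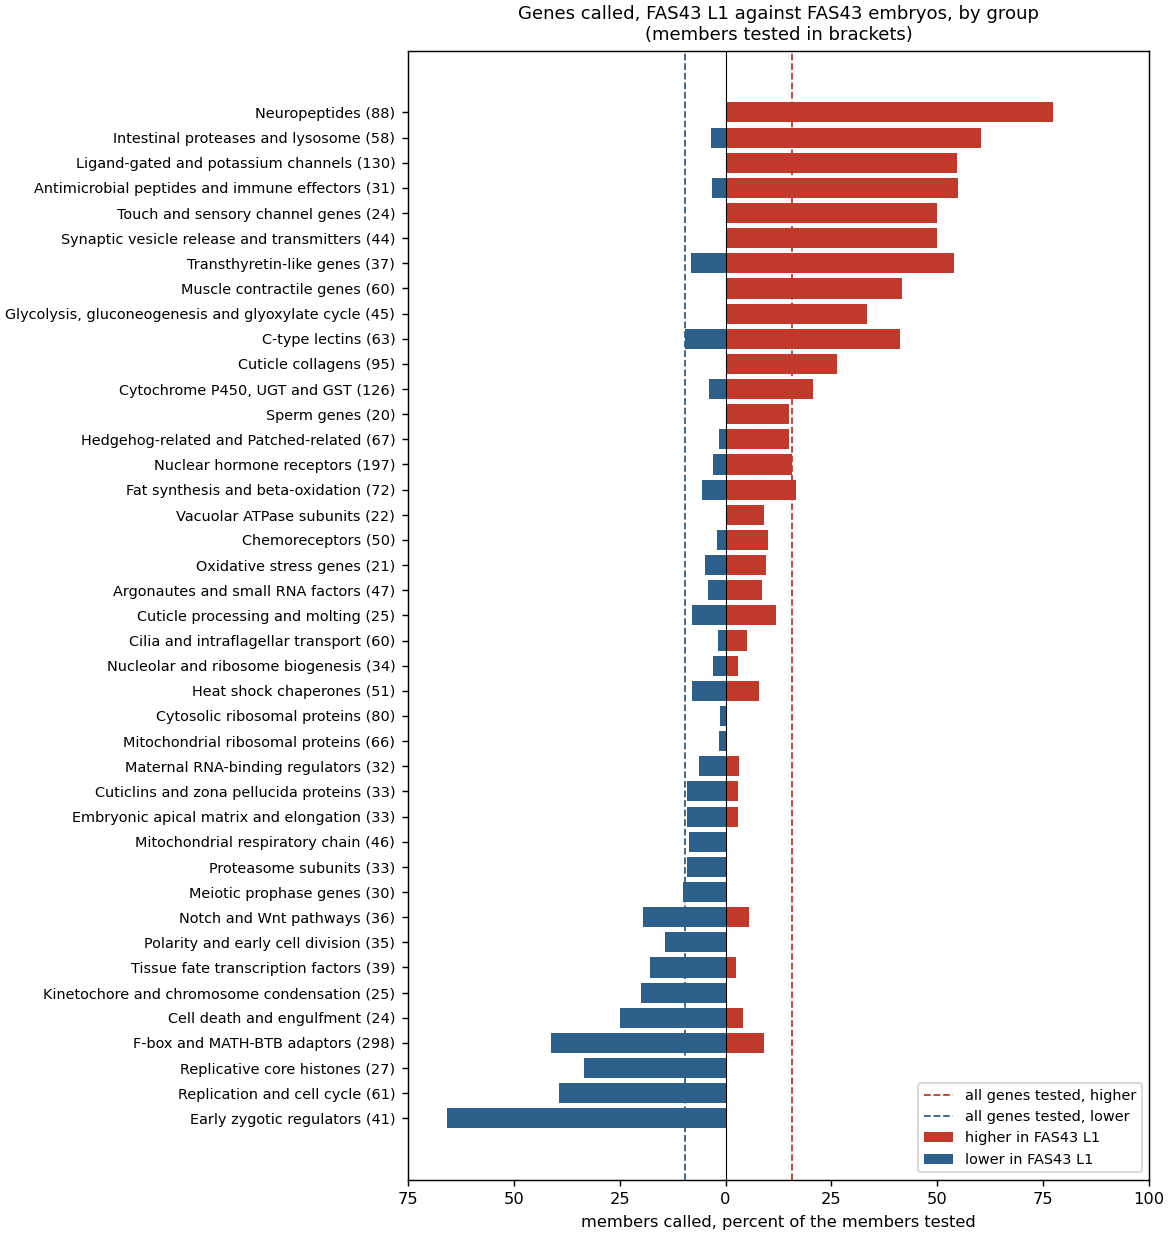
Percent of tested members called higher (red, right) or lower (blue, left) in FAS43 L1 than in FAS43 embryos, for each gene group with at least 20 tested members; dashed lines mark the shares over all genes, 15.8% and 9.66%. Neuropeptides stand at the top with 68 of 88 higher and early zygotic regulators at the bottom with 27 of 41 lower.

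Cuticle collagens rose in part. Of 95 cuticle collagens in both tables, 25 were higher and 0 lower, with a median of 0.91. Their summed level was 7810 and 6300 CPM in FAS43 L1, against 11000 and 5850 CPM in FAS43 embryos, so the stages overlapped. Y69H2.14, also named col-42, had 215 and 1040 CPM in FAS43 L1, against 9.38 and 0.401 CPM in FAS43 embryos (log2 fold change 7.01, SE 1.18, edgeR adjusted p = 0.00153). Dpy-7 and sqt-3, collagens already made in the late embryo, were not called. Dpy-7 had 97.4 and 7.02 CPM in FAS43 L1, against 256 and 131 CPM in FAS43 embryos (log2 fold change -1.89, edgeR adjusted p = 0.0947), and sqt-3 changed by -1.12 (edgeR adjusted p = 0.299). In both genes FAS43 L1 replicate 1 was far above replicate 2. There were 28 collagens called higher and 11 lower without FAS43 L1 replicate 1, and without both replicate 1 libraries 31 and 9. Without FAS43 L1 replicate 2, 10 were higher, and without FAS43 embryo replicate 2, 7.

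Few genes of the matrix that shapes the embryo before the cuticle is made were called higher. Of 33 genes for the embryonic apical matrix and elongation, 1 was higher and 3 lower. Over all genes 15.8% were higher and 9.66% lower, so the share called lower was near that of all genes. The group median was -0.67 and ran between -1.04 and -0.35 over the alternatives. Fbn-1, a fibrillin-related matrix gene, had 133 and 23.7 CPM in FAS43 L1, against 704 and 367 CPM in FAS43 embryos (log2 fold change -2.77, SE 0.814, edgeR adjusted p = 0.0213). Let-653, a mucin-like matrix gene, was lower (log2 fold change -1.69, SE 0.586, edgeR adjusted p = 0.0419). Noah-1 had 721 and 92.1 CPM in FAS43 L1, against 1405 and 868 CPM in FAS43 embryos, and hch-1, the hatching enzyme, had 149 and 19.1 CPM in FAS43 L1, against 279 and 264 CPM in FAS43 embryos. Neither passed the test (edgeR adjusted p = 0.173 and 0.0801). For both, FAS43 L1 replicate 1 lay closer to the embryos than replicate 2 did. Lpr-2, a lipocalin-related gene, was the member that rose (log2 fold change 4.08, SE 0.744, edgeR adjusted p = 0.00223).

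Most early zygotic regulators fell. Of 41 early zygotic regulators, 27 were lower and 0 higher in FAS43 L1, with a median log2 fold change of -2.46. Their summed level was 1050 and 630 CPM in FAS43 L1, against 2960 and 3600 CPM in FAS43 embryos. Pes-10, one of the first genes transcribed in the embryo, had 26.4 and 9.09 CPM in FAS43 L1, against 102 and 140 CPM in FAS43 embryos (log2 fold change -2.77, SE 0.717, edgeR adjusted p = 0.0123). End-1, a GATA factor that specifies endoderm, had 4.07 and 1.16 CPM in FAS43 L1, against 32.6 and 22.2 CPM in FAS43 embryos (log2 fold change -3.38, SE 0.831, edgeR adjusted p = 0.00979). The T-box genes tbx-37 and tbx-38, which act in early blastomeres, changed by -2.34 and -2.87 (edgeR adjusted p = 0.0432 and 0.0163). None of these genes was at 0 in the larvae, and each was higher in FAS43 L1 replicate 1 than in replicate 2. The number of early zygotic regulators called lower was 2 without FAS43 L1 replicate 2, 13 without FAS43 embryo replicate 2 and 29 without both replicate 1 libraries.

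A large block of the fall lay in genes for ubiquitin ligase adaptors. F-box proteins bind substrates, and Skp1-related proteins join them to cullin. Of 102 genes with fbxb names, 91 were lower and 0 higher in FAS43 L1, with a median log2 fold change of -3.15. Their summed level was 468 and 151 CPM in FAS43 L1, against 3040 and 2230 CPM in FAS43 embryos. Fbxb-24, on chromosome III from 11908960 to 11909948, had 3.56 and 1.06 CPM in FAS43 L1, against 49.6 and 27.5 CPM in FAS43 embryos (log2 fold change -4.05, SE 0.822, edgeR adjusted p = 0.00384). Of 88 fbxa genes, 11 were higher and 5 lower, and of 37 fbxc genes 1 was higher and 17 lower. Genes with math names, which encode another kind of adaptor protein, had 10 of 19 higher and 0 lower. Leaving out FAS43 L1 replicate 2 left 3 fbxa genes higher, 0 fbxc genes lower and 1 math gene higher, and leaving out FAS43 embryo replicate 2 left 1, 4 and 0. Skp1-related genes had 12 of 17 lower and 0 higher; skr-15 had 20.1 and 7.43 CPM in FAS43 L1, against 183 and 176 CPM in FAS43 embryos (log2 fold change -3.70, SE 0.720, edgeR adjusted p = 0.00312). The Skp1-related genes called lower numbered 1 without FAS43 L1 replicate 2 and 8 without FAS43 embryo replicate 2. These families were counted by name after their members were seen among the top genes. They hold close copies among which reads may have been split, so values of single members are uncertain. The number of fbxb genes called lower was 5 without FAS43 L1 replicate 2, 47 without FAS43 embryo replicate 2 and 85 without both replicate 1 libraries.

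Sdz genes, named for zygotic expression that depends on the transcription factor SKN-1, had 22 of 29 lower and 1 higher. Sdz-31 is also one of the early zygotic regulators above, so the groups overlap. Sdz-33 had 4.80 and 1.62 CPM in FAS43 L1, against 64.7 and 37.7 CPM in FAS43 embryos (log2 fold change -3.99, SE 0.837, edgeR adjusted p = 0.00462). The sdz genes called lower numbered 1 without FAS43 L1 replicate 2 and 9 without FAS43 embryo replicate 2. Skn-1 itself was not called (log2 fold change 0.78, edgeR adjusted p = 0.295). Genes of fate and signalling were mixed. Of 39 tissue fate transcription factors, 1 was higher and 7 lower, and of 36 Notch and Wnt pathway genes 2 were higher and 7 lower. Hlh-14, a proneural bHLH factor, had 7.74 and 1.21 CPM in FAS43 L1, against 80.04 and 47.7 CPM in FAS43 embryos (log2 fold change -3.82, SE 0.840, edgeR adjusted p = 0.00589). Hnd-1, a bHLH factor of the early mesoderm, changed by -3.21 and dsl-2, a Notch ligand-like gene, by -3.23 (edgeR adjusted p = 0.00720 and 0.00570). Egl-20, a Wnt, was higher at 3.37 and ceh-14, a LIM homeobox gene of neurons, at 2.59 (edgeR adjusted p = 0.00610 and 0.0366). In these 2 groups 0 genes were called lower without FAS43 L1 replicate 2, and 3 and 1 without FAS43 embryo replicate 2. Lin-41, a heterochronic RNA-binding protein, had 81.3 and 244 CPM in FAS43 L1, against 6.95 and 6.20 CPM in FAS43 embryos (log2 fold change 4.63, SE 0.833, edgeR adjusted p = 0.00204). The heterochronic genes lin-14 and lin-28, which act in L1, were not called, at 2.49 and -0.43 (edgeR adjusted p = 0.0547 and 0.568).

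Replication and cell division genes fell. Of 61 genes for replication and the cell cycle, 24 were lower and 0 higher, with a median of -1.56. In 47 of them both L1 libraries lay below both embryo libraries, against 34.3% of all genes. The 61 genes summed to 9330 and 3920 CPM in FAS43 L1, against 14300 and 26200 CPM in FAS43 embryos. Ung-1, a uracil-DNA glycosylase, had 31 and 10.3 CPM in FAS43 L1, against 137 and 126 CPM in FAS43 embryos (log2 fold change -2.67, SE 0.659, edgeR adjusted p = 0.00984). Cdk-1, the mitotic kinase, had 190 and 75.9 CPM in FAS43 L1, against 558 and 622 CPM in FAS43 embryos (log2 fold change -2.15, SE 0.648, edgeR adjusted p = 0.0236). Cyb-1, a B-type cyclin, had 433 and 143 CPM in FAS43 L1, against 445 and 1328 CPM in FAS43 embryos and was not called (edgeR adjusted p = 0.102). Of 25 kinetochore and condensation genes, 5 were lower and 0 higher; spdl-1, which acts at the kinetochore, changed by -2.02 (edgeR adjusted p = 0.0229). Without FAS43 L1 replicate 2 or without FAS43 embryo replicate 2, 0 replication and cell cycle genes were called lower. Without both replicate 1 libraries, 37 were. The kinetochore and condensation genes lower were 0 in each of the first 2 fits, 10 without FAS43 L1 replicate 1 and 11 without both replicate 1 libraries.

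Some histone genes and some factors that place histones were lower too. Replicative core histones had 9 of 27 lower and 0 higher, with a median of -2.11, and 34 of the 64 genes on the list were in neither table. Their mRNAs end in a stem-loop and mostly lack a poly(A) tail, so mRNA libraries capture them poorly. Linker histones and other variants had 6 of 12 lower and 1 higher. Htz-1, the histone H2A.Z, had 638 and 245 CPM in FAS43 L1, against 2885 and 2398 CPM in FAS43 embryos (log2 fold change -2.58, SE 0.745, edgeR adjusted p = 0.0198). His-24, a linker histone H1, had 1004 and 416 CPM in FAS43 L1, against 2690 and 3777 CPM in FAS43 embryos (log2 fold change -2.19, SE 0.754, edgeR adjusted p = 0.0411). Hil-1, another H1-like gene, was the one that rose. It had 24.2 and 140 CPM in FAS43 L1, against 3.77 and 2.52 CPM in FAS43 embryos (log2 fold change 4.71, SE 0.772, edgeR adjusted p = 0.00130). Leaving out FAS43 L1 replicate 2, FAS43 embryo replicate 1 or FAS43 embryo replicate 2 left 0, 3 and 2 replicative histones and 0, 4 and 0 linker histones and variants called lower. Hcp-3, the centromeric histone H3 variant, had 58.7 and 24.9 CPM in FAS43 L1, against 241 and 237 CPM in FAS43 embryos (log2 fold change -2.52, SE 0.628, edgeR adjusted p = 0.0103).

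Of 14 genes for H3 chaperones, which hand histone H3 to DNA, 6 were lower and 0 higher, with a median of -1.43. Asfl-1, an ASF1-like chaperone, had 11 and 4.90 CPM in FAS43 L1, against 32.2 and 48.4 CPM in FAS43 embryos (log2 fold change -2.34, SE 0.719, edgeR adjusted p = 0.0258). Chaf-1, a subunit of the replication-coupled chaperone CAF-1, changed by -1.77 and lin-53, a histone-binding WD40 protein, by -1.79 (edgeR adjusted p = 0.0296 and 0.0490). Xnp-1, the homolog of ATRX, a remodeller that acts with H3.3 in mammals, was not called (log2 fold change -0.71, SE 0.531, edgeR adjusted p = 0.330). Of 14 genes for H3K9 methylation and heterochromatin, 5 were lower and 0 higher. Cec-4, the chromodomain protein that holds methylated H3K9 at the nuclear rim, had 80.9 and 25.6 CPM in FAS43 L1, against 320 and 289 CPM in FAS43 embryos (log2 fold change -2.52, SE 0.653, edgeR adjusted p = 0.0123). Hpl-2, an HP1 protein, changed by -2.06, and set-25, an H3K9 methyltransferase, by -0.40 (edgeR adjusted p = 0.0226 and 0.637). Polycomb, H3K36 and H3K4 methylation genes had 3 of 17 lower and 0 higher. The median of that list was only -0.27 and ran between -0.9 and -0.16 over the alternatives. Without FAS43 L1 replicate 2 or FAS43 embryo replicate 2, 0 H3 chaperone and 0 H3K9 genes were called, and without FAS43 embryo replicate 1 there were 3 and 2.

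How many maternal genes were lower depended on the libraries used. Of 32 maternal RNA-binding regulators, 1 was higher and 2 lower, and of 17 P granule and germ-plasm genes 0 were called. The maternal regulator called higher was lin-41, given above as a heterochronic gene. Without FAS43 L1 replicate 1, 5 of the maternal regulators were lower, and without both replicate 1 libraries 9 were, with a median of -1.84. Their median was 0.73 without FAS43 embryo replicate 2, with 0 lower. In N2 L1, 11 were lower. Mex-5, a maternal zinc finger protein of early polarity, had 288 and 114 CPM in FAS43 L1, against 63.8 and 412 CPM in FAS43 embryos (log2 fold change -0.25, SE 0.726, edgeR adjusted p = 0.828). FAS43 embryo replicate 1 had the lowest mex-5 level of the 4 libraries and replicate 2 the highest. Pos-1, another maternal zinc finger protein, had 412 and 163 CPM in FAS43 L1, against 700 and 1119 CPM in FAS43 embryos and was not called (log2 fold change -1.66, edgeR adjusted p = 0.0905). Pie-1, which keeps the germ lineage from transcribing, changed by -1.59 (edgeR adjusted p = 0.0781). Nos-2, a Nanos homolog of the germline, was lower (log2 fold change -2.36, SE 0.702, edgeR adjusted p = 0.0223). Yolk protein genes, markers of adult hermaphrodites, were near 0. The 2 members tested summed to 2.04 and 0.758 CPM in FAS43 L1, against 1.72 and 0.584 CPM in FAS43 embryos. Sperm genes had 3 of 20 higher, with sums of 160 and 181 CPM in FAS43 L1, against 143 and 115 CPM in FAS43 embryos, and meiotic prophase genes had 3 of 30 lower.

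Genes of general cell function were called higher less often than the 15.8% of all genes. The shares called lower were near or under the 9.66% of all genes. Of 80 cytosolic ribosomal protein genes, 71 had both L1 libraries above both embryo libraries, against 36.5% of all genes. The median log2 fold change of the 80 genes was 1.25, yet 0 were called higher and 1, F54D7.6 (rpl-41.1), was lower. The 80 genes took 91000 and 185000 CPM in FAS43 L1, against 70500 and 46200 CPM in FAS43 embryos. Rpl-3, a protein of the large subunit, had 2917 and 6343 CPM in FAS43 L1, against 1428 and 1288 CPM in FAS43 embryos (log2 fold change 1.77, SE 0.752, edgeR adjusted p = 0.0881). Mitochondrial ribosomal proteins had 1 of 66 lower, with a median of -0.79, and 0 lower when any 1 FAS43 library was left out. Proteasome subunits had 3 of 33 lower and 0 higher, and respiratory chain subunits 4 of 46 lower and 0 higher. Their medians were -1.07 and -0.55. In 23 proteasome and 27 respiratory chain genes both L1 libraries lay below both embryo libraries, against 34.3% of all genes. Of 51 heat shock chaperones, 4 were higher and 4 lower. Hsp-70 had 57.4 and 41.8 CPM in FAS43 L1, against 12.07 and 8.90 CPM in FAS43 embryos (log2 fold change 2.24, SE 0.691, edgeR adjusted p = 0.0261), and hsp-16.41 changed by -1.80 (SE 0.639, edgeR adjusted p = 0.0461). Hsp-16.41 was high in FAS43 embryo replicate 1, at 124 CPM, against 30.8 CPM in replicate 2, and its log2 fold change was -0.47 and not called without that library; the call also ended without any one of the other 3 FAS43 libraries.

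Some genes were listed for one stage only and could not be tested. There were 2914 genes listed for L1 alone, which took 0.599% and 1.07% of the FAS43 L1 counts, and 357 listed for embryos alone, which took 0.0456% and 0.0361% of the FAS43 embryo counts. Chemoreceptor genes were on both sides, with 173 listed for L1 alone and 33 for embryos alone. Cuticle collagens had 51 and 2, C-type lectins 60 and 5, and neuropeptide genes 15 and 1. Cpr-2, a cathepsin B-like protease gene, was the most abundant gene of L1 alone, with 3498 and 10536 counts in FAS43 L1. Odr-10, an olfactory receptor gene, had 165 and 171 counts in FAS43 L1. Among those listed for embryos alone were 7 early zygotic regulators. Tbx-35, a T-box factor of the early mesoderm, had 53 and 57 counts in FAS43 embryos, and tbx-40 had 84 and 113. Each table listed genes with at least 10 counts in at least 2 of its libraries, so absence from a table is not a count of 0.

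Set beside the wild type, most genes called in FAS43 were called in the same direction in N2. N2 L1 had 3014 genes higher and 2157 lower than N2 embryos, 22.6% and 16.2% of those tested. Of the genes higher in FAS43 L1, 1926 were also called higher in N2 L1, which is 91.2% of the FAS43 list and 63.9% of the N2 list. For the genes lower in L1 the shared number was 1135, or 88.1% of the FAS43 list and 52.6% of the N2 list. No gene was called in opposite directions. The calls of both strains came from the same fit with a shared estimate of spread, so their overlap is not independent. Of the 1088 genes called higher in N2 alone, 1076 had a positive log2 fold change in FAS43, with a median of 1.54, and all 1022 genes called lower in N2 alone had a negative one, with a median of -1.26. Over the 13335 genes the log2 fold changes of the strains, which share no libraries, correlated at 0.925, and the slope of FAS43 on N2 was 0.751. Genes are not independent replicates, and no p is given for these values. The slope does not by itself measure a weaker stage change in FAS43. FAS43 L1 replicate 1 scored 54.9 on the first principal component, against 116 and 117 for the N2 L1 libraries. Error in the N2 values lowers such a slope, and the part of each in the 0.751 was not tested.

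The difference of the stage change between FAS43 and N2 was tested directly, as an interaction. With edgeR 0 genes were called, 199 had an unadjusted p under 0.05, where evenly spread p-values would give 667, and the smallest adjusted p was 0.9986. With DESeq2, too, 0 genes were called, and 241 had an unadjusted p under 0.05. The standard error of this difference was 0.950 log2 units at the median over genes, against 0.689 for the FAS43 stage change alone, so differences of moderate size were not detectable with 2 libraries a group. Larger counts of called genes in N2 are therefore not shown to be a difference between the strains. His-72 was the only gene called higher in FAS43 L1 whose sign differed in N2, and comt-4 and Y49F6C.2 were the only genes called lower with a positive N2 value, all 3 without a called interaction. Y49F6C.2 was under 1.1 CPM in every FAS43 library.

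**Figure D4:**
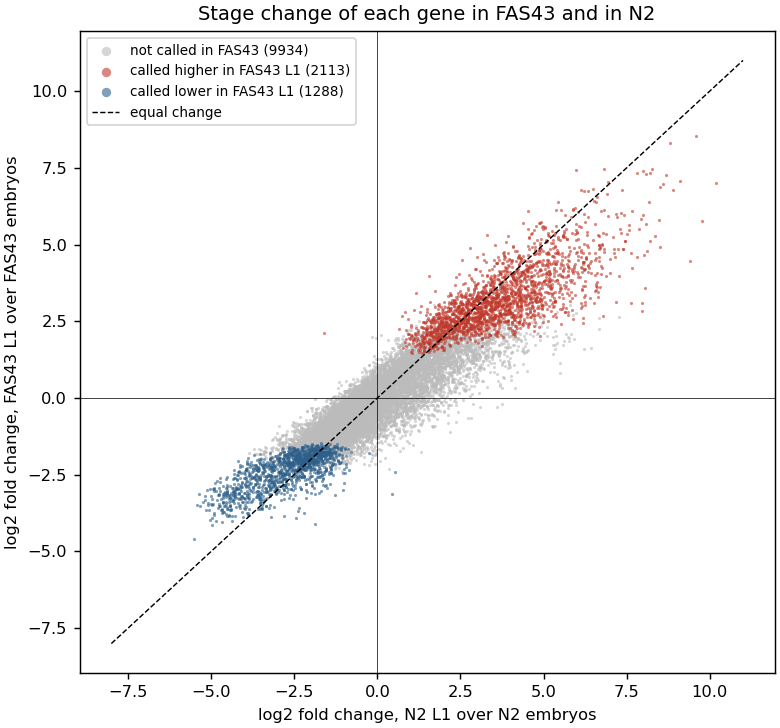
Log2 fold change of L1 over embryos in FAS43 (vertical axis) against that in N2 (horizontal axis) for the 13335 genes in both tables; red and blue points are the 2113 and 1288 genes called higher and lower in FAS43 L1, grey points are not called, and the dashed line marks equal change. Called genes lie in the same quadrant for both strains except his-72, comt-4 and Y49F6C.2. The fitted slope, which does not by itself measure a weaker change, is 0.751.

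By chromosome, the called genes were spread unevenly. On X, 22% of the 1989 genes tested were higher and 6.84% lower in FAS43 L1, with a median log2 fold change of 0.46. On the autosomes 14.8% were higher and 10.3% lower, with a median of -0.11. Chromosome V had 19.3% higher and 8.13% lower, and chromosome I had 10.5% higher and 10.6% lower, the lowest share of higher genes among the 6. N2 gave medians of 0.56 on X and -0.09 on the autosomes. Of 10 dosage compensation genes, whose complex lowers transcription of both X chromosomes in hermaphrodites, 1 was lower and 0 higher. The 1 lower is near the 9.66% of all genes. The list median was -0.72 and ran between -1.13 and -0.37 over the alternatives. The gene called was dpy-30, also a subunit of a histone methyltransferase. It had 166 and 97.7 CPM in FAS43 L1, against 508 and 410 CPM in FAS43 embryos (log2 fold change -1.80, SE 0.601, edgeR adjusted p = 0.0359). The log2 fold change of dpy-30 ran between -2.29 and -1.47 over the alternatives.

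**Figure D5:**
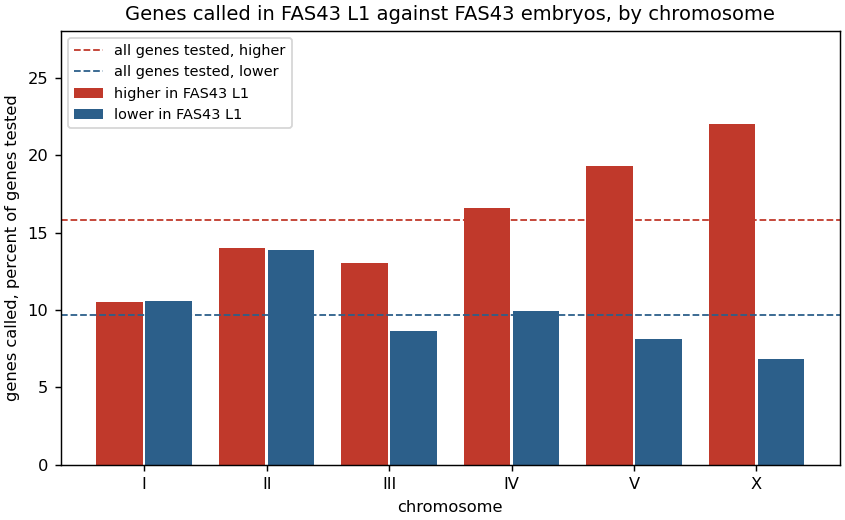
Percent of tested genes called higher (red) and lower (blue) in FAS43 L1 than in FAS43 embryos on each nuclear chromosome; dashed lines mark the shares over all genes, 15.8% and 9.66%. The share called higher is 22% on X and 10.5% on chromosome I.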

How the data were processed

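The deposited tables, one per stage, held raw counts per gene made by the authors and not normalized, for FAS43 and N2. The submitters' processing notes name TopHat2 2.0.13, HTSeq 0.6.1, edgeR 3.10.5 and the build WBcel235; their roles, and the strand setting, are not given in these sources. The 8 columns of normalized values were not used. Per the labels' protocols, libraries were made from 1000 ng of RNA and read for 50 bases.

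The tables were joined on gene, since each stage was deposited separately, and levels set across stages assume like counting. Counts of 13335 shared genes in all 8 libraries were fitted with edgeR 4.0.16 in R 4.3.3: TMM scaling, filterByExpr, 4 group means, 4 residual degrees of freedom and the quasi-likelihood F-test, with Benjamini-Hochberg adjustment over all genes. A gene is called at an adjusted p under 0.05. SE was obtained by dividing the size of the log2 fold change by √F. CPM uses TMM effective sizes of shared genes, and group medians use a pseudocount of 0.5 CPM. The alternatives, DESeq2 among them, are in the closing section. Procedures were tested on simulated counts in which few genes changed and the libraries of a group shared their means. These data differ in both respects, so that test cannot vouch for the calls here.

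Members, 55 gene lists and alternatives were chosen with earlier results of these data known. Name patterns in 4 lists (cuticlins, channels, chemoreceptors, F-box and MATH-BTB), lost through a writing error, were restored after the tables had been opened. The naming rule took the H3.3 genes, the 10 largest called changes in each direction with a mean of at least 20 CPM and a symbol in the files that is not a sequence name, the largest called change of each list with a mean of at least 5 CPM, and the most abundant called genes; other genes were named from the cell type markers or after their values were seen. Lists are described without a test of the list. Same-numbered FAS43 libraries of the 2 stages did not deviate together (correlation -0.191). This value cannot decide whether they were made together, since both replicate 1 libraries lay nearer to the other stage.

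Among the genes named, col-103, fbxb-24, cec-4, nos-2, fbn-1, his-24, clec-87, ttr-50, mec-18, tbx-38, eat-4, pie-1, skn-1, sqt-3, comt-4, hcp-3, lin-28, set-25, hlh-1, lpr-2 and rab-3 overlap a gene on the other strand, and unc-17, lin-14, dpy-30, rab-3 and Y49F6C.2 one on the same strand, so their reads may be shared.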

Additional observations from a re-analysis of the deposited data

How the results depend on the processing

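Beside the 2113 genes higher and 1288 lower in FAS43 L1, DESeq2 gave 2712 and 2108, size factors by the RLE method 2251 and 1548, library totals without TMM 1523 and 1050, a filter at 5 CPM 1940 and 1187, the 4 FAS43 libraries alone 2032 and 1479, and no filter the same numbers. Leaving out 1 FAS43 library gave between 237 and 2316 higher and between 17 and 1445 lower, and leaving out 1 N2 library between 1725 and 2352 higher and between 1031 and 1580 lower. A fit with the replicate block gave 1854 and 1172, but the labels do not say whether same-numbered libraries belong together. With the numbers crossed, a fit added after the data were seen, 1015 were higher and 237 lower. The 5171 genes called in N2 numbered 1683 without N2 embryo replicate 1, 2760 without N2 L1 replicate 2 and 3408 without N2 L1 replicate 1, and 5372 without N2 embryo replicate 2. The causes were not tested. No FAS43 call turned direction under these alternatives. For left-out libraries this was largely set beforehand, because the stages did not overlap in any called gene. The interaction stayed at 0 calls in each fit run, while genes with an unadjusted p under 0.05 numbered between 16, without FAS43 embryo replicate 1, and 831, without N2 embryo replicate 2.

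Of 99 called genes named by the rule or as markers, 54 lost the call without FAS43 L1 replicate 2, 57 without FAS43 embryo replicate 2, 31 without FAS43 embryo replicate 1 and 0 with DESeq2. Uncalled mex-5 turned to 0.04 with crossed numbers, 0.27 without FAS43 L1 replicate 2 and 1.65 without FAS43 embryo replicate 2, with a range from -1.97 to 1.65 over left-out libraries. Uncalled elt-2 turned to 0.02 with the 5 CPM filter, 0.03 without FAS43 L1 replicate 1, 0.01 without FAS43 embryo replicate 1 and 0.01 without both, and was -0.13 without FAS43 L1 replicate 2. The medians of 13 lists, each within 0.5 log2 units of 0, changed sign under some alternative. Each library held at least 17408914 counts; what depth adds to the error was not tested.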

Other observations

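Gene families counted by the stem of their names, a grouping made after the data were seen, showed further blocks. Of 11 rpb genes, subunits of RNA polymerase II, 8 were lower and 0 higher in FAS43 L1 than in FAS43 embryos, with a median log2 fold change of -1.90 and sums of 825 and 583 CPM in FAS43 L1, against 2230 and 2120 CPM in FAS43 embryos. The mdt genes of the Mediator complex had 10 of 20 lower and 0 higher, with sums of 1350 and 1340 CPM in FAS43 L1, against 1970 and 2120 CPM in FAS43 embryos. The taf genes, which encode factors of general transcription initiation, had 5 of 17 lower. In the opposite direction, 20 of 27 globin genes (glb) were higher and 0 lower, with a median of 2.65 and sums of 263 and 454 CPM in FAS43 L1, against 182 and 84.8 CPM in FAS43 embryos. Of 11 P-glycoprotein genes (pgp), 8 were higher, as were 22 of 33 potassium channel genes of the twk family and 19 of 27 neuropeptide receptor genes (npr). Without FAS43 L1 replicate 2 the called numbers were 0 for rpb, 0 for mdt and 2 for glb, and without FAS43 embryo replicate 2 they were 0 for each of these 3. For pgp, twk and npr they were 4, 5 and 4 without FAS43 L1 replicate 2 and 2, 2 and 0 without FAS43 embryo replicate 2, and for taf 0 in both fits.

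Genes with an unadjusted interaction p under 0.05, 1.49% of all genes, included 15 of 95 cuticle collagens, 11 of 31 immune effectors and 9 of 37 transthyretin-like genes. None passed the adjustment. The median stage changes of these groups were 0.91, 2.34 and 2.43 in FAS43, against 2.42, 4.89 and 4.49 in N2. The FAS43 medians moved with single libraries. They were 1.92, 4.43 and 4.05 without FAS43 embryo replicate 1 and 0.38, 1.63 and 1.6 without FAS43 embryo replicate 2. Leaving out FAS43 L1 replicate 1 gave 0.37, 2.67 and 2.81, and leaving out FAS43 L1 replicate 2 gave 1.01, 1.99 and 1.79. The immune effectors summed to 730 CPM in FAS43 embryo replicate 1 and 269 CPM in replicate 2, against 298 and 372 CPM in the N2 embryo libraries.

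The smallest interaction p-values belonged to C45B2.2 and lys-3. C45B2.2 had 75.4 and 109 CPM in FAS43 L1, against 23.4 and 2.19 CPM in FAS43 embryos, and log2 fold changes of 2.85 in FAS43 and 7.96 in N2. Lys-3, a lysozyme gene, had log2 fold changes of 3.08 in FAS43 and 7.96 in N2. Their unadjusted edgeR interaction p-values were 0.000348 and 0.000824.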
